A study of Homo sapiens with 19 samples.

Results

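Cells at 48 and 54 h of brown adipocyte (BA) induction, called the late window, were compared with cells at 24 and 28 h, called the early window. The comparison rests on 4 of the 19 arrays of the series. They were chosen by their time labels alone. KhES-3, a line of human embryonic stem cells, was used throughout. All 4 samples had the same treatment and differed only in its length. It was a serum-free BA differentiation medium in a low-attachment dish, made from IMDM and Ham's F12 with serum albumin, synthetic lipids, α-monothioglycerol, insulin-transferrin-selenium, Glutamax, protein-free hybridoma mix and ascorbic acid-2-phosphate, to which IGF-II, BMP4, VEGFA, KITLG, FLT3LG and IL-6 were added. According to the labels the cells had been grown on irradiated mouse embryonic fibroblasts, whereas the methods of the study describe a feeder-free culture. Each time point has 1 array, so there are no replicates, and no array holds cells kept without induction.

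Human embryonic stem cells are held in their state by POU5F1, SOX2 and NANOG with the help of NODAL and FGF signals, and BMP4 acts on them through SMAD1 and the ID genes. Several supplies of the culture are read by the cell through its own sensors. Low oxygen stabilises HIF1A, which switches on genes of glycolysis and feedback regulators. Low sterol releases SREBF2, which switches on cholesterol synthesis, and zinc acts through MTF1 on the metallothioneins.

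The early arrays shared a slide with all arrays from 14 to 42 h (8 arrays, the middle slide). The late arrays lay on the slide with those from 48 to 72 h (5 arrays), which was scanned on a later day, so window and slide cannot be told apart. Each difference between the windows (late minus early mean of the log2 signal, with every array scaled to its 75th percentile) was therefore set beside the slope over hours within the middle slide. The SD within windows was pooled from the arrays at 24 and 28 h and those at 48 and 54 h, and it holds any change between those hours. Printed signals were rescaled to a 75th percentile of 871 on every array. Before scaling this percentile ran from 655 to 1003 over the 19 arrays, and 49.5% to 64.7% of the probes were well above background, with the lowest shares at 14 and 16 h (49.5% and 52.0%). The 16724 genes tested were each represented by their brightest probe, and for 15957 of them that probe passed the background test on each of the 4 arrays. The defining genes of the cell line were bright, with POU5F1 signals of 300809 and 296212 early and 268533 and 264692 late.

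By at least 2-fold, 201 genes were higher and 187 were lower in the late window, which is 1.2% and 1.12% of the 16724 genes tested. Such a call required that both late arrays lay on the same side of both early arrays and that the gene was well above background on both arrays of the brighter window. The median difference over all genes was -0.01. Both late arrays lay above both early arrays by any amount in 32.6% of genes, and below them in 32.7%. The call is not a test. Limma on the 4 arrays called 0 genes, while 5030 had an unadjusted p under 0.05. As the RNA came from whole cultures, fewer cells of a type and less RNA per cell cannot be told apart.

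Many of the called genes were dim in 1 window. Of those called higher, 72 were well above background on neither early array, and 17 of these had a fold of at least 2 as a bound. Of those called lower, 35 were well above background on neither late array, and 22 of these had such a bound. The balance of directions moved with the scaling. With spike-in RNA as the scaling, 149 genes were higher and 257 lower (36.7% of the calls higher, against 51.8%), and with normexp and quantile normalization 33 were higher and 47 lower (41.3% higher). Leaving out 1 window array leaves a window with 1 array, so the call asks for less and its counts say little about the balance.

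Many of the called genes had moved in the same direction by 42 h, still on the middle slide, but most by less than 2-fold. There, 180 of the 201 genes called higher stood above both early arrays, as did 36.8% of all genes, and 154 of the 187 called lower stood below both, as did 39.8% of all genes. The step to 42 h reached 2-fold in that direction for 69 of the 201 and 73 of the 187. These counts share the early arrays with the call. Within the middle slide 640 genes rose and 496 fell from 14 to 42 h (limma, adjusted p under 0.05), which is 3.83% and 2.97% of the genes tested. With the array median as the scaling 474 rose and 660 fell, and with spike-in RNA 1 rose and 5 fell. The slope was called in the direction of the window difference for 53 of the genes called higher and 19 of those called lower, and in the opposite direction for 0 and 1.

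The number of slope calls depended on single arrays. Without the 14 h array 4 genes rose and 3 fell, and the counts were 24 and 13 without the 16 h array, 149 and 76 without the 20 h array, 415 and 273 without the 24 h array, 335 and 280 without the 32 h array, 68 and 35 without the 36 h array and 1149 and 877 without the 42 h array. Without both the 14 h and the 16 h array limma called none, while 1866 genes had an unadjusted p under 0.05. All 640 rising and 496 falling slopes kept their sign in that last fit, which shares the other 6 arrays. The late arrays were also set against the line through the 8 arrays of the middle slide, extended to 48 and 54 h. Limma called 0 genes above or below it, with 671 above and 720 below at an unadjusted p under 0.05. This departure holds any offset between slides. Its 95% interval included 0 for 175 of the 201 genes called higher (87.1%) and 131 of the 187 called lower (70.1%). Among all genes the interval lay above 0 in 4.01% and below 0 in 4.31%, so it included 0 for most genes. These shares also stand beside the interval counts below. The call and the departure share the late arrays.

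**Figure D1:**
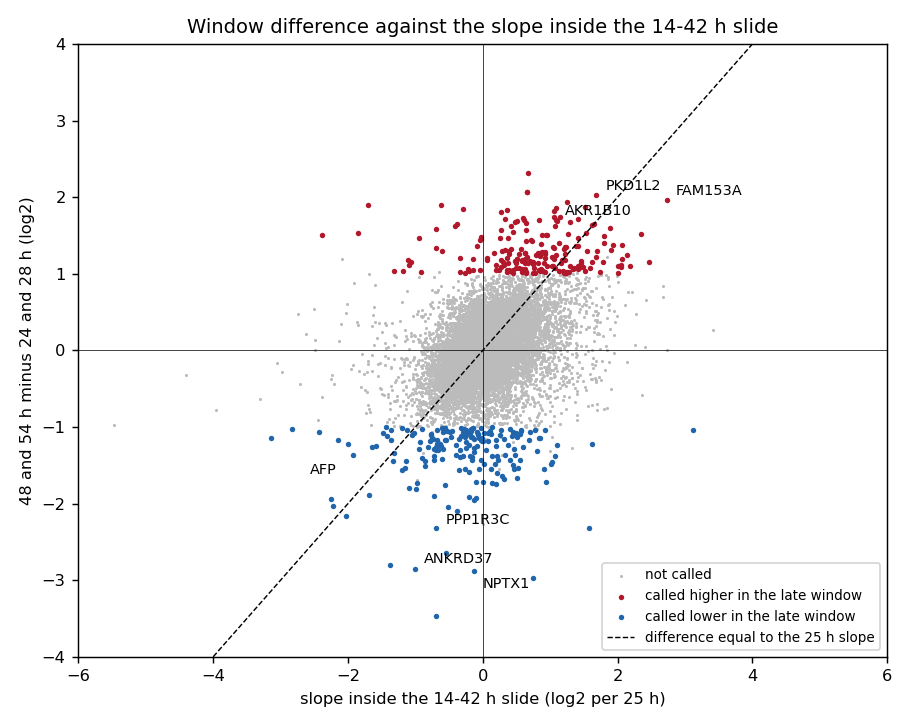
Each point is 1 of 16724 genes, with the slope within the middle slide on the horizontal axis (log2 per 25 h, the time between the window means) and the late minus early difference on the vertical axis (log2). The 201 genes called higher are red and the 187 called lower blue. AFP and PKD1L2 lay near the dashed line on which both are equal, while ANKRD37 and NPTX1 lay far below it.

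Ordered by the window difference, the top of the genes that rose along the middle slide and stayed well above background on all 4 arrays held PKD1L2, FAM153A, APC2, RFPL1S, CTCFL, INHBB, CR1L, HES3 and CCR8. At 14 h, where the slope begins, PKD1L2, FAM153A, CTCFL, INHBB, CR1L, HES3 and CCR8 were not well above background. FAM153A, CTCFL and CR1L were not at 16 and 20 h either, nor INHBB and HES3 at 16 h. The slopes of these genes thus rest in part on signals near background. PKD1L2, a member of the polycystin family, had signals of 125 and 85.1 early and 375 and 472 late. It was 4.08-fold higher in the late window (log2 difference 2.03, SD within windows 0.32), and its slope was 1.68 per 25 h (limma adjusted p = 0.037). APC2, a relative of the WNT regulator APC, had 180.0 and 169 early and 558 and 606 late, and the 2 arrays of each window lay close together (SD 0.07). CTCFL, the germ-line relative of CTCF, had 32.9 and 48.8 early and 118 and 114 late. INHBB, which encodes the activin B subunit, had 90.5 and 82.1 early and 199.7 and 305 late, with a signal of 237 at 42 h. For INHBB the level at 42 h thus lay between those at 48 and 54 h. HES3, a repressor of the HES family, had 98.7 and 70.5 early and 184 and 255 late. These genes were chosen to have windows that do not overlap.

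The corresponding genes that fell were MDFIC, SSH1, COL12A1, AFP, MT1M, CRYGB, PFN1P2, STMN4, CAV3 and CLC. AFP, the fetal counterpart of albumin made by yolk sac and liver, had signals of 841 and 928 early and 378 and 308 late, after 2235 at 20 h. It was 2.59-fold lower in the late window (log2 difference -1.37, SD 0.16), with a slope of -1.92 per 25 h (limma adjusted p = 0.025). COL12A1, a fibril-associated collagen, had 482 and 518 early and 234 and 152 late. SSH1, a phosphatase that activates cofilin, had 367 and 364 early and 159 and 115 late, and STMN4, a tubulin-binding stathmin, had 479 and 432 early and 171 and 224 late. These genes, too, were chosen for windows that do not overlap. MDFIC, which carries a MyoD family inhibitor domain, had the largest difference of the 10, with 207 and 200.2 early and 81.4 and 69.0 late (log2 difference -1.44, SD 0.12).

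The rule that chose these 19 genes used a slope in the direction of the difference, and the slope shares the early arrays, so that nearness of the late arrays to the line is in part fixed by it. The 95% interval of the departure included 0 for all 9 genes that rose and for 9 of the 10 that fell, but some intervals were wide, as that of FAM153A (departure -0.61, interval -1.95 to 0.73). The exception was PFN1P2, with signals of 28658 and 25457 early and 11454 and 11173 late and a departure of -0.61 (95% interval -0.92 to -0.30, limma adjusted p = 0.303). PFN1P2 is a pseudogene of profilin 1 whose probe may share signal with it, so its value is uncertain. In a fit over 14 to 72 h with the slide as a block, 2 of the 9 rising and 5 of the 10 falling slopes were called. Among all genes that fit called 3.2% rising and 3.61% falling. It shares the arrays of the middle slide with the slope that chose these genes.

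**Figure D2:**
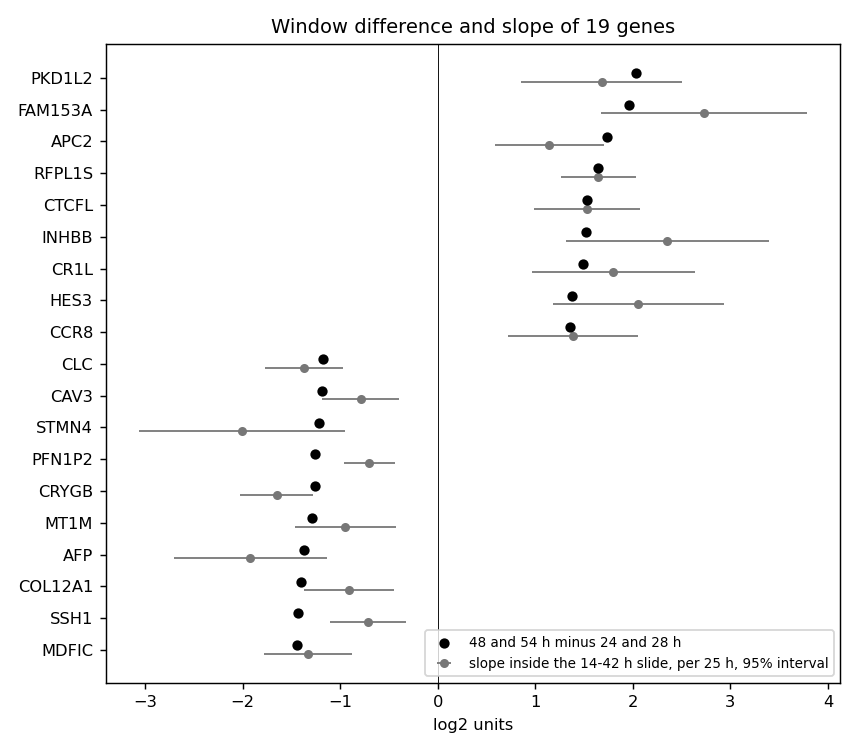
For the 9 genes that rose and the 10 that fell, black points give the late minus early difference and grey points the slope within the middle slide per 25 h with its 95% interval, both in log2 units. The difference of PKD1L2 (2.03) lay within the interval of its slope, and that of PFN1P2 (-1.26) lay below it.

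Genes of glycolysis and the hypoxia response held some of the largest differences. ANKRD37, PFKFB3 and ADM were called lower, and 2 of the 17 members tested were higher and 8 lower on both late arrays, with a median difference of -0.21 against -0.01 for all genes. Among all genes 32.6% were higher and 32.7% lower on both late arrays, and these shares also stand beside the counts of the lists below. ANKRD37, an ankyrin repeat protein induced by HIF1A, had signals of 17884 and 23439 early and 5499.9 and 1465 late and was 7.21-fold lower (log2 difference -2.85, SD 0.97). PFKFB3, which makes the activator of phosphofructokinase, had 4070.2 and 5526 early and 2297 and 1451 late. ADM, which encodes the vasodilator adrenomedullin, had 65626 and 67319 early and 41043 and 21906 late. In these 3 genes the windows did not overlap, but the 54 h array was well below the 48 h array. Members named here beyond the 3 with the largest difference of a list were chosen after their values were seen. HK2, the enzyme that starts glycolysis, had 16372 and 17940.4 early and 10245 and 8294 late, and SLC2A1, a glucose transporter, had 48945 and 50199 early and 35708 and 25865 late. The windows overlapped for LDHA, NDRG1, PDK1, BNIP3 and SLC2A3, and ENO1 and PGK1, enzymes of lower glycolysis, were higher on both late arrays by 0.31 and 0.29 on the log2 scale.

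These genes moved up and down together between neighbouring arrays. None of the 17 slopes was called by limma, beside 3.83% rising and 2.97% falling among all genes. Their median was 0.41 per 25 h, opposite in sign to the median difference of -0.21. The interval of the departure included 0 for all 17. ANKRD37 stood at 23576 at 36 h and at 730.5 at 42 h on the same slide, and at 12348 at 60 h. From 36 to 42 h all 17 members were lower (median -0.93), from 42 to 48 h 16 of the 17 were higher (median 0.53), and from 48 to 54 h all 17 were lower again (median -0.42). For steps between neighbouring arrays, here and in the lists below, no share of all genes was counted. At 42 h 14 of the 17 lay below both early arrays and 0 above them, beside 39.8% and 36.8% of all genes. The median difference of the list was -0.028 without the 54 h array, -0.47 without the 28 h array and -0.43 without the 48 h array.

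A low signal at 42 h was also found in some genes outside this list. Of the 12 genes lower by at least 4-fold, the 5 well above background on all 4 arrays were NPTX1, ANKRD37, PPP1R3C, TBXAS1 and BHLHE40, of which the last 3 were chosen after their values were seen. PPP1R3C, which directs protein phosphatase 1 to glycogen, had 4731 and 5203 early and 1739.7 and 572 late and only 241 at 42 h. BHLHE40, a repressor that acts in the circadian clock, had 1953 and 2811 early and 953 and 339 late and 180.3 at 42 h. DDIT4, an inhibitor of MTOR signalling induced by low oxygen and other stress, had 68392 and 85153 early and 42682 and 22355 late and 8602 at 42 h. In PPP1R3C, BHLHE40 and DDIT4, as in ANKRD37, the 42 h array was the lowest of the 10 from 14 to 54 h. The BMP antagonist NOG had 937 and 975 early and 307 and 207 late and 186 at 42 h, and MYOD1, a master regulator of skeletal muscle, had 333 and 399 early and 123 and 112 late and 77.7 at 42 h. NOG and MYOD1 were likewise lower at 42 h than on either late array, whereas NPTX1 and TBXAS1 were higher at 42 h (2164 and 736) than on either.

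The promoters of ANKRD37 and BHLHE40 are shown because both genes were lower by over 4-fold and both hold the core letters of the hypoxia response element, ACGTG, more than once. They are the 250 bases before the start in RefSeq (GRCh38.p14), 5′ to 3′ in the direction of the gene, with each match on either strand in capitals. That of ANKRD37 lies at chr4:185396591-185396840 on the plus strand and has 3 matches. That of BHLHE40 lies at chr3:4979187-4979436 on the plus strand and has 4 matches. In each promoter a CACGTG gives a pair of overlapping matches, 1 on either strand.
ANKRD37: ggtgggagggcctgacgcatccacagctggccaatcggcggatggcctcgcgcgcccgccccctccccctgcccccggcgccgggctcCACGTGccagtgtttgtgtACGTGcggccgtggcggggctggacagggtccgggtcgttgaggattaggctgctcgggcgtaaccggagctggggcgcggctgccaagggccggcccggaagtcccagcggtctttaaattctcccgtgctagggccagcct
BHLHE40: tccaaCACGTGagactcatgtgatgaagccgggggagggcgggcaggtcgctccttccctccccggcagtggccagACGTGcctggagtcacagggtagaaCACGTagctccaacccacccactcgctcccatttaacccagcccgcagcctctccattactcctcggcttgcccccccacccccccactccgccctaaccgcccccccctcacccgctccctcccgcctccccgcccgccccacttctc

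The letters ACGTG lay on either strand of 18.5% of the 35116 promoter windows in the table. Of the 17 hypoxia and glycolysis genes tested, 14 had a window and 9 of these held the letters in at least 1 of their windows, as did 21.7% of all genes. These are matches of letters and not measured binding.

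**Figure D3:**
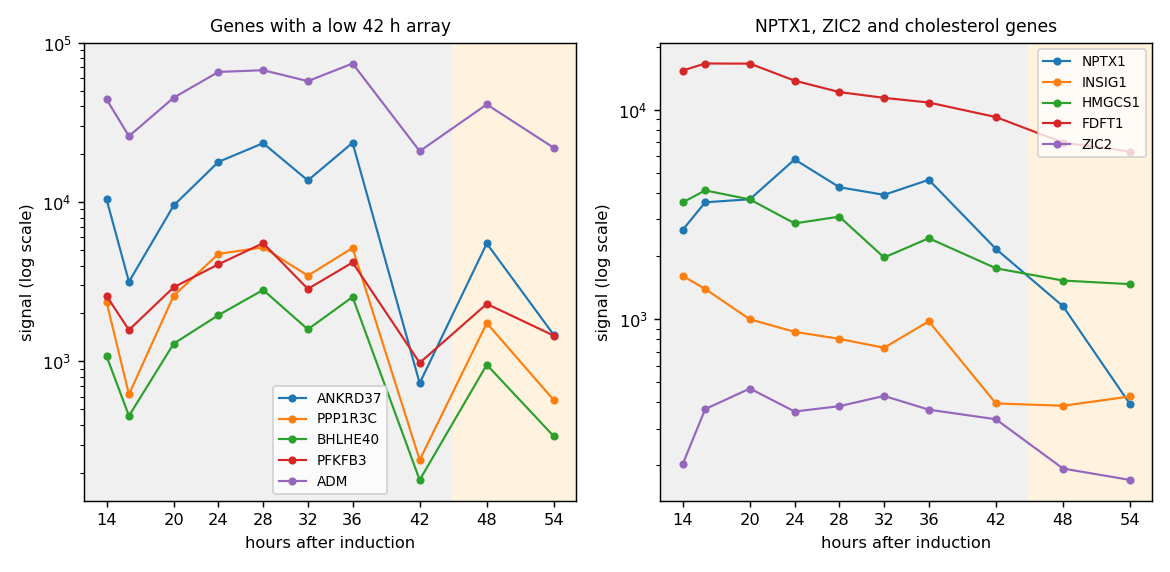
Signals of 10 genes (log scale) against hours after induction on the 10 arrays from 14 to 54 h, with the middle slide shaded grey and the late slide orange. In the left panel ANKRD37 went from 23576 at 36 h to 730.5 at 42 h and 5499.9 at 48 h, and in the right panel INSIG1, HMGCS1 and FDFT1 were lower at 48 and 54 h than at 24 and 28 h.

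Genes of cholesterol synthesis were lower with little scatter within windows. In this list 0 of the 18 members tested were higher and 16 lower on both late arrays, with a median difference of -0.59 (SD of the median within windows 0.02), and 1 was called lower by 2-fold. The shares among all genes were 32.6% higher and 32.7% lower. INSIG1, which retains the sterol sensor in the endoplasmic reticulum, had signals of 869.7 and 805 early and 386 and 427 late (log2 difference -1.04, SD 0.09). HMGCS1, which makes HMG-CoA, had 2865 and 3085 early and 1528 and 1469 late, and FDFT1, squalene synthase, had 13764 and 12142 early and 6963 and 6315 late. In all 3 genes the arrays of a window were close and the windows were far apart. INSIG1 stood at 977 at 36 h and at 396 at 42 h, and at 2062 at 60 h on the late slide. From 36 to 42 h 16 of the 18 members were lower (median -0.19). At 42 h all 18 lay below both early arrays, beside 39.8% of all genes. Relative to the early window, the median of the list was -0.18 at 60 h, -0.42 at 66 h and -0.62 at 72 h. SC5D was among the members whose windows overlapped.

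The genes of this list also fell within the middle slide. Limma called 13 of the 18 slopes falling and none rising, beside 2.97% falling among all genes. Among them were INSIG1 (-1.37 per 25 h, limma adjusted p = 0.033) and the mevalonate kinase MVK (-1.30, adjusted p = 0.017). Over all genes only 5 slopes were called falling with spike-in RNA as the scaling, and only 3 without the 14 h array. Most of the 13 calls were thus lost in either setting. All 13 kept a negative slope without the arrays at 14 and 16 h, where no slope was called. So did all 496 falling slopes among all genes, as that fit shares the other arrays, and the sign therefore adds no support. The median slope of the 18 was -0.67 per 25 h with all arrays and -0.67 without those at 14 and 16 h. With the slide as a block over 14 to 72 h, 3 of the 18 were called falling, beside 3.61% of all genes. The interval of the departure included 0 for 17 of the 18, the exception being MVK, at 0.64 (95% interval 0.09 to 1.19, limma adjusted p = 0.469). The sterol response letters TCACNCCAC, on either strand, lay in a promoter window of 1 of the 12 genes that had one, and in those of 1.09% of all genes.

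Genes of mitosis were lower as well, although none was called by 2-fold. Here 0 of the 18 members tested were higher and 16 lower on both late arrays, beside 32.6% and 32.7% of all genes. The median difference was -0.53 (SD of the median 0.08). BUB1, a kinase of the spindle checkpoint, had 7113 and 8238 early and 4598 and 3972 late. NUSAP1, which binds the spindle, had 12069.9 and 13217 early and 8183 and 7264 late, and KIF20A, a kinesin of cytokinesis, had 2178 and 2565 early and 1600.5 and 1459 late. CDK1, the kinase of mitotic entry, had 5804 and 6663 early and 4136 and 3975 late. The exceptions to the lower level were TOP2A and BIRC5, whose windows overlapped. The slope of CENPE, a kinetochore motor, was called falling (-0.84 per 25 h, limma adjusted p = 0.017), and that of no other member, beside 2.97% of all genes. The median slope of the 18 was -0.07 per 25 h. The list was already lower at 42 h, when all 18 members were below their level at 36 h (median -0.42), and from 42 to 48 h the median moved by -0.01. At 42 h 17 of the 18 lay below both early arrays, beside 39.8% of all genes.

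Genes of DNA replication differed by less, since 2 of the 18 members tested were higher and 13 lower on both late arrays, beside 32.6% and 32.7% of all genes. Their median difference was -0.18 (-0.24 without the 28 h array to -0.18 without the 24 h array). POLA1, a subunit of DNA polymerase alpha, had the largest difference, with 2243 and 2303 early and 1534 and 1302 late. Slopes were called falling for POLA1, MCM3, MCM4, MCM5 and GINS2, and for no other member, beside 2.97% of all genes. With the slide as a block over 14 to 72 h, 8 of the 18 were called falling, beside 3.61% of all genes. When the arrays at 14 and 16 h were left out of that fit, 0 of the 18 were called, beside 0.215% of all genes. CCNE2, a cyclin of S phase entry, had 94.5 and 89.4 early and 62.6 and 69.4 late, and RRM2, a subunit of ribonucleotide reductase, had 647 and 798 early and 492 and 559 late. MCM6 and MCM7, parts of the replicative helicase, were slightly higher on both late arrays, by 0.04 and 0.08.

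Metallothioneins, small proteins that bind zinc and copper, had the lowest median of the 29 lists. In this family 0 of the 10 members tested were higher and 8 lower on both late arrays, beside 32.6% and 32.7% of all genes, with a median difference of -0.70. MT1M and MT1G were called lower, and the slopes of MT1M, MT1G, MT1L and MT1B were called falling, beside 2.97% of all genes. With the slide as a block over 14 to 72 h, 0 of the 10 were called falling, beside 3.61% of all genes. The median slope within the middle slide was -0.84 per 25 h. On the late slide the median of the list, relative to the early window, rose to 2.11 at 60 h, 2.96 at 66 h and 2.06 at 72 h. MT1M had signals of 3012 and 2050.3 early and 1325 and 786 late, and MT1G had 6735 and 4558 early and 3552 and 1932 late. MT1F had 2437 and 2181 early and 1391 and 1060.3 late, and MT2A had 11417 and 10144 early and 7295 and 4425 late. All of these were lower at 54 h than at 48 h, as were all 10 members (median -0.67), so the late arrays differed from each other about as much as the windows did. The median was -0.37 without the 54 h array and -1.05 without the 48 h array. The members are near copies whose probes may share signal. The metal response letters TGCACNC or TGCGCNC, on either strand, lay in promoter windows of all 4 members that had one, and in those of 28.5% of all genes.

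Targets of BMP and SMAD1 stood on the other side. Among them 8 of the 15 members tested were higher and 3 lower on both late arrays, beside 32.6% and 32.7% of all genes. The median difference was 0.40 (SD of the median 0.08). No slope was called, beside 3.83% rising and 2.97% falling among all genes. The median slope was -0.21 per 25 h, opposite in sign to the median difference. ID1, an inhibitor of basic helix-loop-helix factors, had 51601 and 46346 early and 71954 and 71442 late. Its relatives behaved alike, with 3366 and 3559 early and 4826 and 6509 late for ID3 and 1729 and 1446 early and 2603 and 2753 late for ID4. SMAD6, an inhibitory SMAD, had 346 and 421 early and 538 and 628 late. In these 4 genes the late arrays lay above the early ones. GATA2, a factor of blood and trophoblast, was called higher with 23.6 and 28.8 early and 49.0 and 58.7 late, but it was well above background on 1 early array. From 14 to 54 h the 28 h array was the lowest for ID1, which had started from 86882 at 14 h and had regained 70795 by 42 h. Relative to the early window, the median of the list was 1.19 at 3 h. It was 0.20, 0.47 and 0.26 at 14, 16 and 20 h and 0.40 at 42 h, so the early window was a low point of its course. The difference of NOG, given above, was opposite to the median of its list. Without the 24 h array the median of the list was 0.25.

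**Figure D4:**
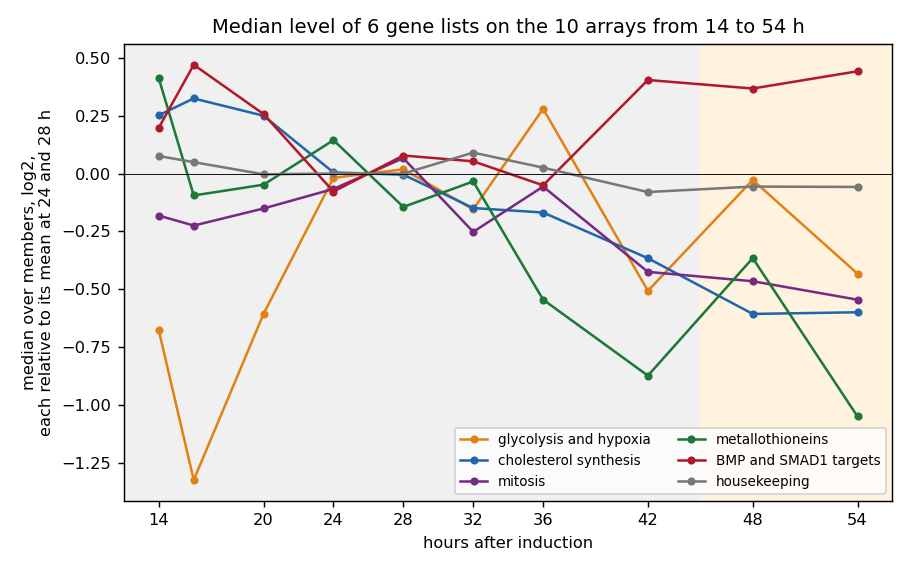
For 6 gene lists, the median over members of the log2 signal relative to each gene's own mean at 24 and 28 h, against hours after induction, with the middle slide shaded grey and the late slide orange. At 48 and 54 h the cholesterol list stood at -0.61 and -0.60, the metallothioneins at -0.37 and -1.05, and the BMP and SMAD1 targets at 0.37 and 0.44.

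Genes of the undifferentiated state lay on both sides. In the list of core and primed pluripotency 11 of the 22 members tested were higher and 4 lower on both late arrays, beside 32.6% and 32.7% of all genes. The median difference was 0.13 (0.032 without the 24 h array to 0.11 without the 54 h array). The median was 0.045 with spike-in RNA as the scaling. NANOG had 18628 and 20373 early and 20398 and 21910.4 late (log2 difference 0.12, SD 0.08), and SOX2 had 28695 and 30619.5 early and 28757 and 26001 late, with windows that overlapped. POU5F1 was lower by a small step on both late arrays (log2 difference -0.16, SD 0.02), and KLF4 had 297 and 366 early and 420.3 and 423 late. FOXD3, which represses differentiation genes, was called higher with 3079 and 2315 early and 5307 and 5725 late, and it had reached 6170.4 at 42 h. ZIC2, a zinc finger factor of primed cells, was called lower with 362 and 384 early and 193 and 171 late, and it stood at 332 at 42 h, so that its drop lay between the slides. TERT, the catalytic part of telomerase, had 1275 and 992 early and 1806 and 1719 late.

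In the NODAL pathway 3 of the 17 members tested were higher and 8 lower on both late arrays, with a median difference of -0.13 (-0.16 without the 48 h array to -0.074 without the 54 h array), beside 32.6% higher and 32.7% lower among all genes. LEFTY2, an inhibitor of NODAL, had 1697 and 2200.4 early and 1311 and 1106 late, and its slope was called falling (-1.12 per 25 h, limma adjusted p = 0.033). The related LEFTY1 had 3427 and 4536 early and 3225 and 2199 late, and NODAL itself had 927 and 997 early and 708 and 584 late. LEFTY1 and NODAL were both higher at 42 h (5100.3 and 1148) than on either late array. CER1, another inhibitor of NODAL, was called lower and was well above background on neither late array, so that its early level was at least 2.27-fold higher.

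Among WNT targets and antagonists 4 of the 12 members tested were higher and 3 lower on both late arrays, beside 32.6% and 32.7% of all genes. The median difference was -0.08 (-0.18 without the 24 h array to 0.038 without the 54 h array). NKD1, a feedback inhibitor of WNT, was called lower with 98.5 and 98.0 early and 44.3 and 36.3 late. SP5, a direct WNT target, was called lower with 2877 and 3929 early and 2125 and 1168 late, and like ANKRD37 it was low at 42 h (1189). TCF7, a nuclear partner of β-catenin, had 353 and 355 early and 549.8 and 566 late. Among FGF and ERK feedback genes 6 of the 13 members tested were higher and 2 lower on both late arrays, with a median difference of 0.15, a median that was -0.10 without the 24 h array. SPRY4, an inhibitor of FGF signalling, had 674 and 944 early and 1089 and 1743 late, and FGF4 had 279 and 224 early and 375 and 409 late. FGF8 was called lower but was well above background on neither late array, so that its early level was at least 1.97-fold higher.

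The medium held IL-6, and among genes of the IL6 and STAT3 response 3 of the 10 members tested were higher and 3 lower on both late arrays, beside 32.6% and 32.7% of all genes. The median difference was 0.16 (0.066 without the 24 h array to 0.36 without the 28 h array). IL6 itself had 131 and 159.8 early and 231 and 204 late (log2 difference 0.59, SD 0.17), and its highest signals on the middle slide were 291 at 14 h and 265 at 42 h. IL6ST, the shared receptor chain gp130, had 961 and 1028 early and 1335 and 1377 late, and the kinase PIM1, a STAT3 target, had 11937 and 13547 early and 9817 and 7646 late. IL6 and IL6ST were thus higher and PIM1 lower on both late arrays, and none of the 3 was called. GDF15, a stress-induced member of the TGFB superfamily, had 14366 and 14832 early and 16948 and 17659 late (log2 difference 0.25), after 26319.9 at 36 h and before 64052 at 60 h. CITED1 was well above background on 0 of the 4 arrays and was not tested.

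Markers of the germ layers and of other cell types lay on both sides. For comparison with their counts, 32.6% of all genes were higher and 32.7% lower on both late arrays. NPTX1, a secreted pentraxin of neural tissue, had the largest difference among genes measured on all 4 arrays, with 5788 and 4265 early and 1152 and 392 late (7.39-fold lower, log2 difference -2.89, SD 0.81). Its level had dropped from 4626 at 36 h to 2164 by 42 h, with 218 left at 60 h, and its departure from the line was -2.17 (95% interval -3.63 to -0.71, limma adjusted p = 0.382). Of the 13 neuroectoderm genes listed, 6 were tested, and 2 of these were higher and 3 lower on both late arrays, with a median of -0.11 (-0.16 without the 54 h array to 0.01 without the 48 h array). TUBB3, a neuronal tubulin, had 34355 and 31885 early and 25670.0 and 24061 late (log2 difference -0.41, SD 0.07). For primitive streak and mesoderm 2 of the 10 members tested were higher and 3 lower on both late arrays, with a median difference of -0.06 (-0.24 without the 24 h array to 0.14 without the 28 h array). No member was called by 2-fold, and limma called 1 slope rising, that of the VEGF receptor KDR (adjusted p = 0.047), which had overlapping windows with 3903 and 5558 early and 5422 and 6368 late. PDGFRA, a receptor of mesoderm, had 145 and 205 early and 226 and 321 late, and MIXL1, a streak factor, had 113 and 179.9 early and 93.3 and 100.1 late. For endoderm 3 of the 11 members tested were higher and 3 lower on both late arrays, with a median difference of 0.00 (-0.28 without the 24 h array to 0.31 without the 28 h array). APOA1, an apolipoprotein, was called higher with 429 and 622 early and 1044 and 1362 late, opposite to AFP, and TTR, a carrier of thyroid hormone, had overlapping windows with 50.0 and 189 early and 169.7 and 228 late.

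For trophoblast and amnion 3 of the 11 members tested were higher and 1 lower on both late arrays, beside 32.6% and 32.7% of all genes. The median difference was -0.01 (-0.11 without the 24 h array to 0.05 without the 28 h array). TFAP2A, a factor of ectoderm and trophoblast, was called higher with 17.2 and 27.2 early and 50.5 and 46.8 late, and was well above background on 1 early array. CDX2, which marks trophectoderm, had 51.1 and 102 early and 43.6 and 33.3 late, and WNT6 had 55.7 and 59.3 early and 98.2 and 101 late with a rising slope (limma adjusted p = 0.037). These 3 genes did not share a direction. For blood and endothelium 0 of the 9 members tested were higher and 5 lower on both late arrays, with a median difference of -0.25 (-0.34 without the 48 h array to -0.089 without the 54 h array), and TEK, the angiopoietin receptor, had 871 and 791 early and 543 and 415 late with a falling slope (limma adjusted p = 0.022). For fibroblasts, the type of the feeder layer in the labels, 2 of the 8 members tested were higher and 3 lower on both late arrays, with a median difference of 0.01 (-0.051 without the 24 h array to 0.05 without the 28 h array). FN1, fibronectin, had 252 and 308 early and 538 and 524 late with a rising slope (limma adjusted p = 0.018). For skeletal myoblasts 0 of the 8 members tested were higher and 4 lower on both late arrays, with a median difference of -0.48 (-0.50 without the 24 h array to -0.33 without the 48 h array), and MYOD1 was among the members called lower. The median slope of this list was 0.31 per 25 h, opposite in sign to its median difference, and no slope was called. For brown and beige adipocytes 4 of the 12 members tested were higher and 2 lower on both late arrays, with a median difference of 0.10 (-0.10 without the 24 h array to 0.17 without the 28 h array). UCP1, the uncoupling protein of brown fat, had 50.3 and 70.5 early and was well above background on neither late array, so that its early level was at least 2.50-fold higher. It still stood at 59.3 at 42 h, so that its drop lay between the slides, and it was well above background on 8 of the 19 arrays. CEBPA, an adipogenic factor, had 519 and 423 early and 715 and 709 late with a rising slope (limma adjusted p = 0.027). CIDEA, a lipid droplet protein of brown fat, was well above background on neither early array and was at least 1.49-fold higher late.

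Stress genes had medians near that of all genes. Their counts stand beside 32.6% of all genes higher and 32.7% lower on both late arrays. In the integrated stress response 4 of the 18 members tested were higher and 6 lower on both late arrays, with a median difference of -0.02 (-0.07 without the 28 h array to 0.032 without the 54 h array). SLC7A5, an amino acid transporter, was called lower with 5134 and 4828 early and 2247 and 2355 late and fell within the middle slide (-1.42 per 25 h, limma adjusted p = 0.0083). ATF3, a stress-induced factor, had 11532 and 11151 early and 6994 and 5675 late, with 5002 at 42 h. Among p53 targets 4 of the 16 members tested were higher and 5 lower on both late arrays, with a median difference of -0.03 (-0.10 without the 24 h array to 0.063 without the 28 h array), and FAS, a death receptor, had 122 and 168 early and 106 and 87.4 late. Among NRF2 targets 4 of the 15 members tested were higher and 6 lower on both late arrays, with a median difference of -0.04 (-0.10 without the 24 h array to -0.0094 without the 28 h array). AKR1B10, an aldo-keto reductase, was called higher with 99.4 and 198 early and 392 and 528 late, and its near copy AKR1B15, chosen after its values were seen, had 37.9 and 70.6 early and 202 and 234 late, where probes may share signal. HMOX1, heme oxygenase, had 5093 and 4569 early and 8164 and 7221 late. NQO1, a quinone reductase, had 109 and 119.8 early and 70.8 and 77.1 late, and its falling slope (limma adjusted p = 0.041) rested in part on the 42 h array, where its signal was 7.18. Among cytosolic heat shock genes 2 of the 12 members tested were higher and 3 lower on both late arrays, with a median difference of 0.11 (-0.13 without the 54 h array to 0.18 without the 48 h array). HSPA1A, an inducible chaperone, had 2595 and 2886 early and 2297 and 7339 late, so that only the 54 h array was high, and its near copy HSPA1B had 2794 and 2908 early and 2589.9 and 6929 late. Among endoplasmic reticulum chaperones 3 of the 14 members tested were higher and 5 lower on both late arrays, with a median difference of 0.01 (-0.057 without the 54 h array to 0.011 without the 48 h array). HSPA5, the main chaperone there, had 2209.7 and 2125 early and 2885 and 3151 late, and CALR, calreticulin, had 98924 and 87574 early and 75325 and 73179.6 late with a falling slope (limma adjusted p = 0.025).

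The remaining lists had small medians. Here, too, the counts stand beside 32.6% of all genes higher and 32.7% lower on both late arrays. Among collagens, laminins and integrins 6 of the 18 members tested were higher and 5 lower on both late arrays, with a median difference of 0.08 (-0.0067 without the 24 h array to 0.14 without the 28 h array). ITGA1, a collagen receptor chain, had 89.2 and 70.9 early and 44.0 and 41.6 late, and LAMA5, a laminin of the basement membrane, had 1385 and 1364 early and 2070.0 and 1972 late. Among epithelial and mesenchymal junction genes 2 of the 15 members tested were higher and 9 lower on both late arrays, with a median difference of -0.18 (-0.28 without the 48 h array to -0.071 without the 54 h array). CLDN10, a tight junction protein, had 2096 and 2022 early and 1459.8 and 1203 late, and TWIST1, a mesenchymal factor, had 149.5 and 177 early and 287 and 234 late. In the retinoic acid pathway 3 of the 11 members tested were higher and 6 lower on both late arrays, with a median difference of -0.14 (-0.19 without the 28 h array to -0.095 without the 24 h array). CYP26A1, which degrades retinoic acid, had 2744 and 3515 early and 2343 and 1433 late, with 1064 at 42 h. Of 15 HOX genes listed, 4 passed the filter, with 1 lower on both late arrays. For the housekeeping genes 5 of the 12 members tested were higher and 6 lower on both late arrays, with a median difference of -0.06 (-0.058 without the 48 h array to -0.0042 without the 24 h array). B2M, the light chain of class I molecules, had 5799 and 6345 early and 8462 and 9208 late, and HPRT1, a purine salvage enzyme, had 9866 and 9418 early and 7065 and 6960.1 late.

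Some calls followed the slides. In 151 genes (0.903% of all) the 8 arrays of the middle slide lay above all 11 others, and 14 of the 187 genes called lower were among them. In 174 genes (1.04%) the middle slide lay below all others, and 3 of the 201 genes called higher were among these, namely ADGRA2, FGFR3 and ZFP57. TBXAS1, thromboxane synthase, had 777 and 1157 early and 238 and 206 late, with 736 at 42 h and 219 to 359 on the first slide (3 to 12 h). CAV3, a muscle caveolin named above among the genes that fell, showed the same order, with 144 and 162 early and 82.6 and 54.5 late. FGFR3, a receptor for fibroblast growth factors, had 3336 and 3548 early and 6493 and 7797 late, with 4602 at 42 h and 7229 to 11947 on the first slide. For these genes a difference between times and one between slides cannot be told apart.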

How the data were processed

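RNA of KhES-3 cells was measured on 19 one-colour Agilent arrays, 1 per time point from 3 to 72 h of BA induction, each with 1 sample in Cy3. According to the labels, RNA was taken up in TRIzol and purified on RNeasy columns. The authors deposited the scanner output of each array, made with Agilent Feature Extraction 10.10.1.1. In it the processed intensity of a spot is its brightness after subtraction of the local background and removal of spatial trends, per the file headers, with no scaling between arrays. A deposited table of intensity values, scaled by a factor per array whose rule is not stated, served as an alternative. Flags mark a spot as well above background or as an outlier, and outlier spots and control spots were left out. The number of arrays limits the precision, and no counting depth exists for arrays.

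Spots of 1 probe were averaged, log2 of the intensity was reduced by each array's 75th percentile, and probes had to exceed background clearly on 2 or more of the 4 arrays (32382 probes of 16724 genes by the names in the files). For 2 genes a window value is that of 1 array, as the other spot was an outlier. Limma 3.58.1 (R 4.3.3) fitted slopes and departures. Their p-values were adjusted by Benjamini-Hochberg over all 32382 probes tested, before the brightest probe of each gene was taken. The scatter in these fits is that round a line over single arrays and not that of replicates. Tables were made with Python 3.11.15, numpy 2.4.6 and pandas 2.3.3, and the fits were tested on simulated data. Of 100 changes of 1 log2 unit, 48 were called as slopes (per 25 h) and 39 as departures. At 2 log2 units 83 of 100 were called in either fit. False calls were 2 of 133 slopes and 6 of 128 departures. Departures of 2-fold can thus be missed. The simulated noise was independent between probes, unlike shifts of many genes on 1 array. A bound on a fold was set from the higher of the lowest signal well above background on an array and the dim probe's own signal.

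Named genes were those 10 in each direction whose window difference was largest among genes with a slope called in that direction, non-overlapping windows and all 4 arrays well above background, up to 3 members of each list with the largest difference, and NANOG, SOX2, POU5F1, KLF4, LEFTY1, LEFTY2, NODAL, CITED1, GDF15 and IL6. A few genes that these rules select, or that belong to a list, are not reported here, although counts over the lists include them. Rules for genes whose departure was called named none. Members, lists and tests were chosen with earlier results of these data known. Alternatives were another scaling (array median, spike-in RNA, normexp with an offset of 50 and quantile normalization), the deposited table, other filters, probe rules and thresholds, log2 hours, limma on 4 arrays, the slide as a block and each array left out. Normexp used the median pixel intensity, since the files hold no mean of the spot, a change made after seeing the data. Promoter sequences are those of RefSeq (GRCh38.p14).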

Additional observations from a re-analysis of the deposited data

How the results depend on the processing

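No paired analysis was possible because no time point was measured on more than 1 array. With normexp and quantile normalization 33 genes were higher and 47 lower in the late window, and 973 slopes rose. From the values the authors scaled themselves, 111 genes were higher and 407 slopes rose. With spike-in RNA as the scaling 1 slope rose and 5 fell. Requiring all 4 window arrays well above background left 108 genes higher, and no filter left 19 rising and 10 falling slopes. With the mean of a gene's probes 1055 slopes rose and 761 fell, and with log2 hours 1088 rose, 800 fell and 1 gene lay below the line. At 1.5-fold 1040 genes were higher and 874 lower, at 4-fold 4 and 12, and limma on the 4 arrays called 0 and 0 (unadjusted p under 0.05 for 2618 and 2412). Without the 24 h and 28 h arrays 144 slopes rose and 84 fell, without the 14 h and 16 h arrays 0 and 0 (unadjusted 1001 and 865), and from 20 to 72 h with the slide as a block 34 and 36. These last 2 settings, the 42 h array in place of the late window and the arrays left out for gene lists were chosen after seeing the data. With 1 array left out, 4 to 1149 slopes rose and 3 to 877 fell (fewest without 14 h, most without 42 h), 166 to 304 genes were higher and 169 to 310 lower, and 0 to 0 departed from the line. The cause of these moves was not tested. The median of the glycolysis and hypoxia list was -0.51 with the 42 h array in place of the late window and -0.47 to -0.028 with 1 window array left out. That of cholesterol synthesis was -0.55 with the array median, -0.67 with spike-in RNA, -0.52 with normexp, -0.37 with the 42 h array and -0.61 to -0.58 with 1 array left out. That of mitosis was -0.43 with the 42 h array and -0.56 to -0.42 with 1 left out, and that of the metallothioneins ran from -1.05 to -0.37. Over the genes named, the difference moved by more than the SD within windows for 3 with the array median, 17 with spike-in RNA, 48 with normexp and 73 with the 42 h array in place of the late window. No called value changed sign. Probes near background limit the dim genes, of which 72 called higher and 35 called lower had no signal well above background in the dimmer window.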
